A study of Mus musculus with 30 samples.

Results

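The nuclear genome encodes most of the proteins of mitochondrial oxidative phosphorylation, and 93 such genes were measured in mouse embryonic stem cells whose Nanog depended on doxycycline. They were taken as every gene on the array whose symbol begins with Nduf, Uqcr, Sdh followed by a, b, c or d, Cox4 to Cox8, or Atp5, and they are 93 of the 19935 genes with a symbol of their own. By complex, 41 genes belonged to complex I, 8 to complex II, 8 to complex III, 19 to complex IV and 17 to ATP synthase. The symbol rule also takes in 7 Ndufaf and 4 Sdhaf assembly factors, which help to build complexes I and II without being part of them.

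Complex I passes electrons from NADH to ubiquinone, and complex II does so from succinate. Complex III hands them on through cytochrome c to complex IV, which reduces oxygen. Complexes I, III and IV pump protons, and ATP synthase uses the proton gradient through its membrane part to turn the catalytic F1 head. Mitochondrial DNA encodes a few core subunits, so each of these complexes except complex II is assembled from products of both genomes. Pluripotent cells of the mouse in the naive state are known to respire as well as to use glycolysis, and the balance between both is known to shift as they leave that state.

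The cells were the NgR clone, a single embryonic stem cell clone derived from Ainv15 cells, which express the reverse tetracycline transactivator (rtTA). It was kept on primary mouse embryonic fibroblasts with doxycycline at 1 ug/ml, so that Nanog, a transcription factor of the naive state, was on. All 10 groups are this clone, with 3 arrays each: day 0 with doxycycline, days 1, 3 and 5 after doxycycline was taken away, and, on each of those 3 days, 12 further hours either without doxycycline (the control of the pulse) or with it (the pulse). The arrays were Affymetrix Mouse Gene 1.0 ST, and each value is the log2 signal of a transcript cluster, meaning all probes designed for 1 transcription unit. No group carries doxycycline without the Nanog transgene, so effects of the drug and of Nanog cannot be told apart, and days without doxycycline cannot be told apart from days in culture. The labels do not say whether the 3 arrays of a group were grown as separate cultures, so p-values here speak only of the spread among the arrays, which may be technical.

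Nanog signal averaged 11.03 ± 0.023 (SD, n = 3) at day 0 and 10.24 ± 0.075, 10.51 ± 0.050 and 9.85 ± 0.21 at days 1, 3 and 5 of withdrawal, so it was higher on day 3 than on day 1. It was 10.70 or more in every array with doxycycline and 10.57 or less in every array without it. Of 10 stem cell markers, a list that includes Nanog itself, 8 had fallen by day 5, Nanog being 1 of them. Others of the 8 were Zfp42 (11.72 at day 0 and 9.92 at day 5) and Pou5f1 (12.35 and 11.05), while Dppa5a stood at 13.52 and 13.54. The per-array mean of these markers went from 11.45 to 11.52 at day 0 down to 10.59 to 10.70 at day 5. The mean of 12 trophectoderm markers went from 7.84 to 7.87 up to 9.03 to 9.15, led by keratins, and that of 19 fibroblast markers from 7.64 to 7.70 up to 7.97 to 8.08. The mean of 15 markers of extraembryonic endoderm went from 7.38 to 7.44 up to 7.84 to 7.91. Not all members of these lists moved with the mean. At day 5, by the threshold given below, 8 trophectoderm markers were higher and 4 were not called. Of the fibroblast markers 11 were higher, 1 lower and 7 not called, and of the endoderm markers 8, 1 and 6. Among all clusters, 23.8% were called higher and 18.8% lower. Arrays carry no read depth, and the spread of the values (interquartile range 2.43 to 2.95) was widest in replicates 2 and 3 of the day 5 control, replicate 2 of the day 3 control and replicate 3 of the day 1 control.

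Removing doxycycline was followed by lower signal of most respiratory chain genes. On day 1, 32 of the 93 genes had fallen and 0 had risen. On day 3, 65 had fallen and 1 had risen, and on day 5, 62 had fallen and 3 had risen. The median change of the 93 genes was -0.24, -0.43 and -0.35 on the log2 scale on the 3 days, against 0.02, 0.02 and -0.01 for all clusters tested. Changes were tested in limma with Benjamini-Hochberg adjustment over 23385 clusters and called at an adjusted p under 0.05. Among all clusters, 3.02% were called lower and 3.49% higher on day 1, 14.3% lower and 19.6% higher on day 3, and 18.8% lower and 23.8% higher on day 5, so the share of respiratory chain genes called lower (34.4%, 69.9% and 66.7%) was above the background on each day and the share called higher was below it. The 3 comparisons share the day 0 arrays. In bulk RNA, fewer cells with a transcript and less of it per cell cannot be told apart, and the part of the marker changes given above in these results was not tested. The day 1 count was the least steady, at 12 genes without replicate 3 of day 0 and 18 without replicate 1 of day 1.

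**Figure D1:**
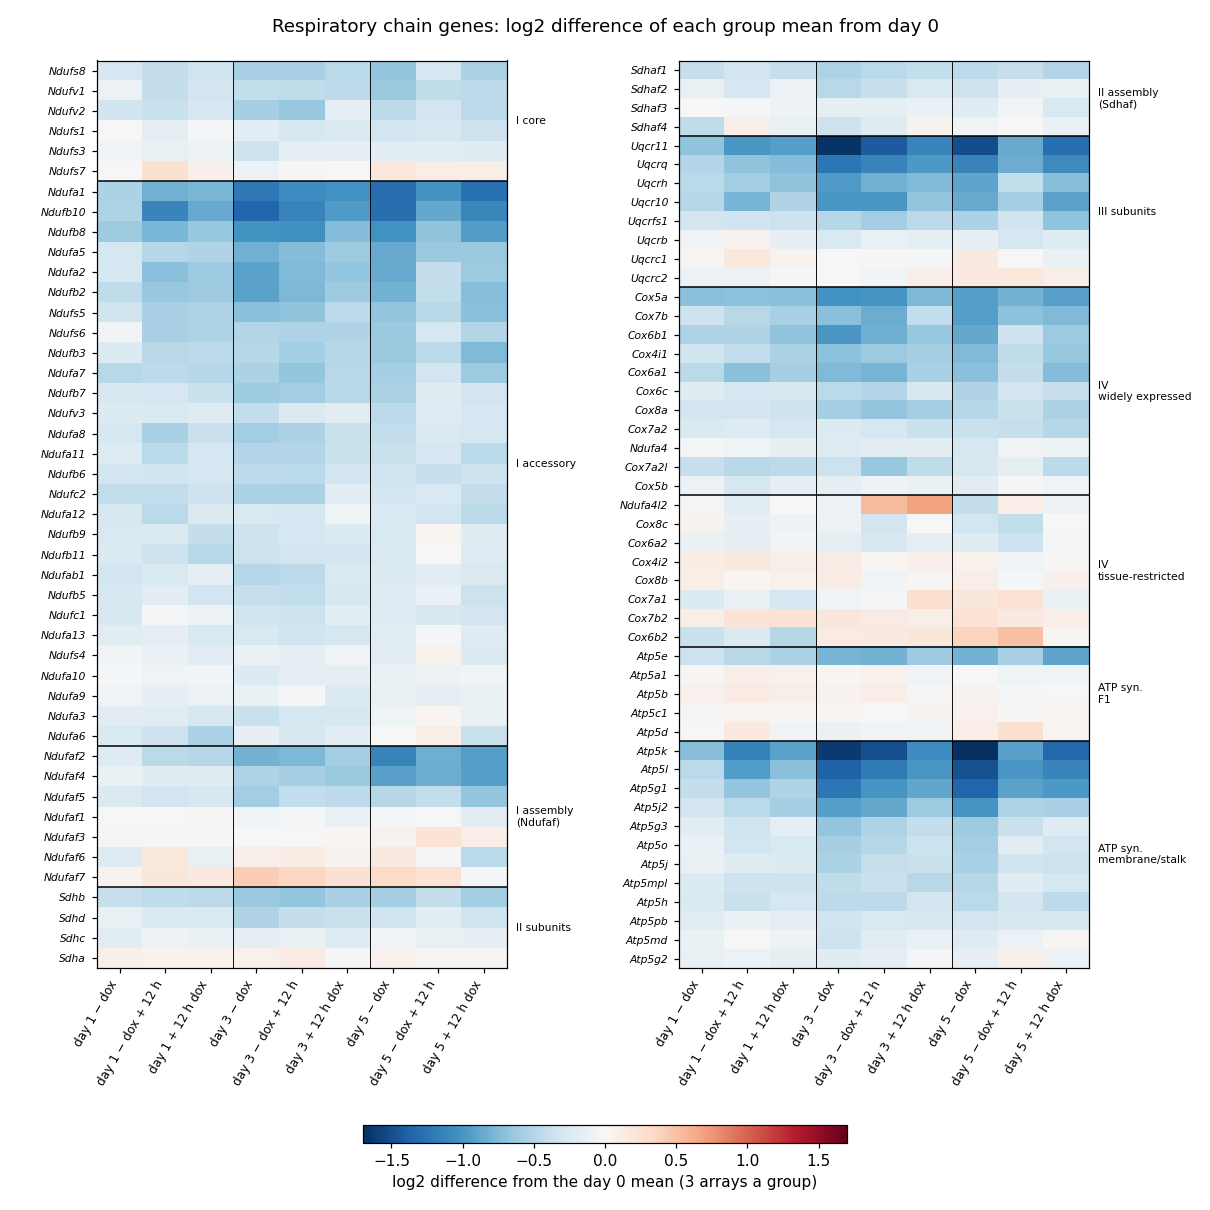
Heat map of the 93 genes (rows, grouped by role) in the 9 groups after day 0 (columns); colour is the log2 difference of the group mean of 3 arrays from the day 0 mean, blue for lower. Most rows are blue from day 3 on, while Atp5a1, Atp5b and Sdha stay close to white. Ndufaf7 is pale red in the groups of days 3 and 5 except the day 5 pulse.

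The largest falls were of small subunits that carry no catalytic site. Atp5k encodes the e subunit of ATP synthase, which sits in the membrane where ATP synthase forms dimers. Its signal was 10.69, 10.71 and 11.02 at day 0, 10.01, 10.05 and 10.18 at day 1, 9.18, 8.91 and 9.47 at day 3, and 9.44, 9.09 and 8.83 at day 5 of withdrawal. No array of the 3 withdrawal days reached a day 0 array. The change at day 5 was -1.69 ± 0.17 (SE), 3.23-fold lower (limma, adjusted p = 4.78e-09). Uqcr11, a small subunit of complex III, gave 10.07, 10.01 and 10.25 at day 0 and 8.80, 8.55 and 8.44 at day 5. Its groups did not overlap, and it was 2.85-fold lower (log2 change -1.51 ± 0.14 SE, limma adjusted p = 1.66e-09). Atp5l, the g subunit beside Atp5k, gave 11.42, 11.54 and 11.68 at day 0 and 10.26, 9.93 and 9.99 at day 5. The groups were again apart, with a change of -1.49 ± 0.12 (SE). Other rows of Atp5l on the array fell by more than this, for example by 1.59 and 1.68.

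**Figure D2:**
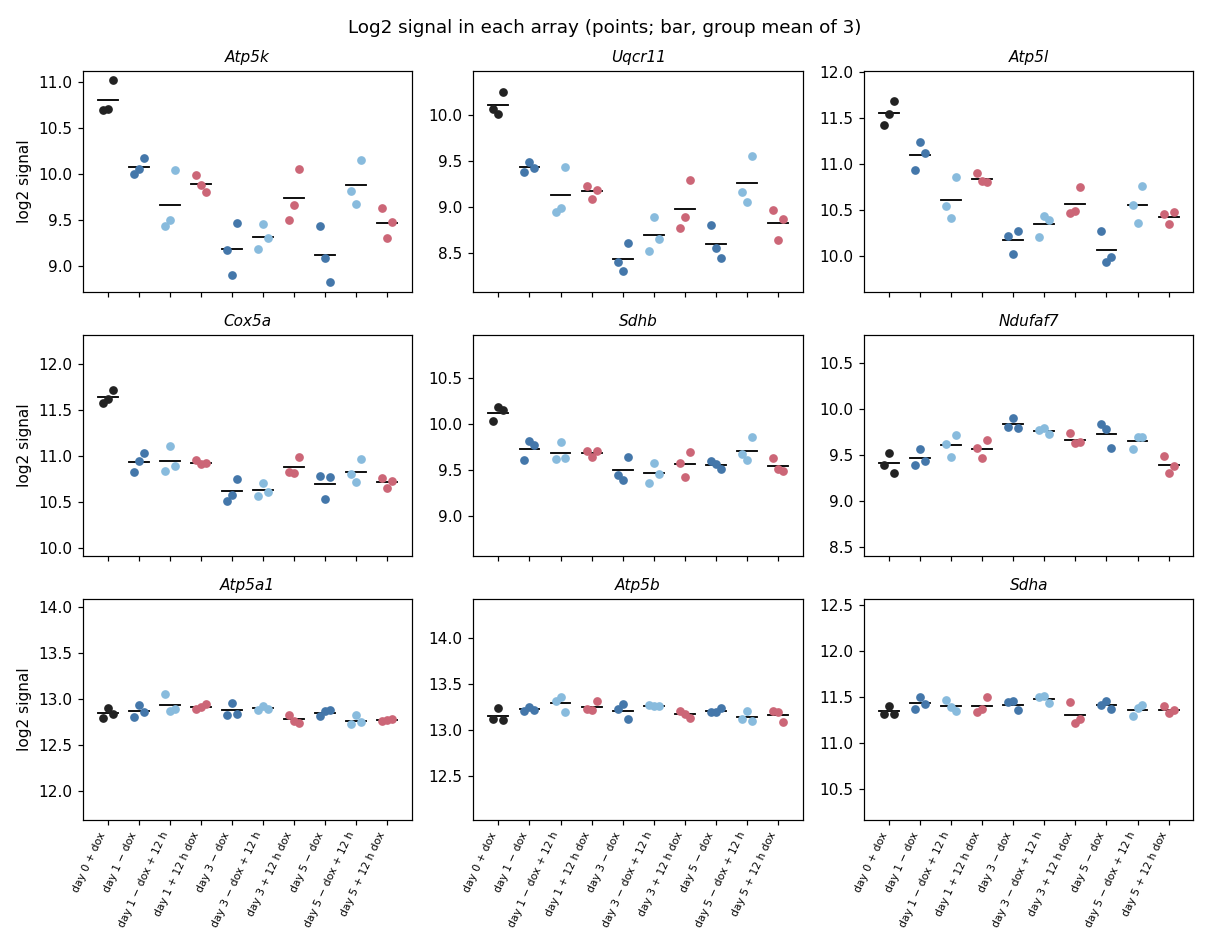
Log2 signal of 9 genes in each array (points) of the 10 groups, with the group mean of 3 arrays as a bar; every panel spans the same range of log2 units, around a different centre. Atp5k, Uqcr11, Atp5l and Cox5a step down by day 3, and Atp5a1, Atp5b and Sdha run level.

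The next 7 falls at day 5 were of Atp5g1 (-1.35), Ndufa1 (-1.30), Ndufb10 (-1.28), Uqcrq (-1.14), Ndufaf2 (-1.13), Ndufb8 (-1.03) and Atp5j2 (-1.01), each with an SE of 0.080 to 0.135 and no overlap with day 0. Atp5g1 encodes the c subunit of the rotating membrane ring, which in the mouse is also made from Atp5g2 and Atp5g3. Of these paralogs, Atp5g3 changed by -0.60 (limma adjusted p = 3.06e-06) and Atp5g2 by -0.13, which was not called (adjusted p = 0.129). Only 3 genes were called higher by day 5, while under quantile normalization 9 were. The 3 were Cox6b2, a testis isoform of a complex IV subunit (8.96 ± 0.014 to 9.34 ± 0.19, SD, n = 3, change 0.38), Ndufaf7, a methyltransferase of complex I assembly (0.32), and Cox7b2, another testis-type isoform (0.25). Cox7b2 had the lowest mean signal of the 93 genes, at 5.71, and Atp5b the highest, at 13.21; these are signals of different probes, not abundances.

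Promoter sequences are shown for 6 genes because the 3 largest falls at day 5 are among the 5 genes whose promoter holds both of a pair of short motifs that are classically tied to respiratory chain promoters. The motifs are CGCATGCG, the core of the site of nuclear respiratory factor 1 and its own reverse complement, and CCGGAAG, the site type of ETS factors such as GABPA, both searched on either strand from 250 bases before to 50 after the start. Promoters were taken from RefSeq on the GRCm38.p6 build, and 77 of the 93 genes had one. Each stretch below reads 5' to 3' along the gene, ends before the transcription start and has the motif matches in capitals. Atp5g2 is shown as a gene that holds the first motif and was not called at day 5. The CCGGAAG match of Atp5k and a further one of Atp5l lie after the start, and the CGCATGCG match of Uqcr11 spans it, so these are not shown.
Atp5k, chr5:108434401-108434488 (minus strand): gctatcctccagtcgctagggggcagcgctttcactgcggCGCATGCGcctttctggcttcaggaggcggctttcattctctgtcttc
Uqcr11, chr10:80406841-80406927 (minus strand): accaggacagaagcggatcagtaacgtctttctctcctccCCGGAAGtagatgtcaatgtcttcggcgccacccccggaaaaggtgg
Atp5l, chr9:44920908-44920992 (minus strand): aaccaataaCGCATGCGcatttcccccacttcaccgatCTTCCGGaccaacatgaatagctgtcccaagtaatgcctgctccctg
Atp5j, chr16:84834991-84835163 (minus strand): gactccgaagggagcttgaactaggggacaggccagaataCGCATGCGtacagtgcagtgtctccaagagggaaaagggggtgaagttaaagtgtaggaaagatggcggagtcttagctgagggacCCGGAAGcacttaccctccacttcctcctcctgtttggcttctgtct
Cox6a1, chr5:115348959-115349159 (minus strand): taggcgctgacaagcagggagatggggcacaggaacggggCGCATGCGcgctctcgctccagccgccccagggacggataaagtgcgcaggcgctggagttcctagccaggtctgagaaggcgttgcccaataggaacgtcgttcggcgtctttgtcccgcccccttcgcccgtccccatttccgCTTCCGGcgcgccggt
Atp5g2, chr15:102671048-102671128 (minus strand): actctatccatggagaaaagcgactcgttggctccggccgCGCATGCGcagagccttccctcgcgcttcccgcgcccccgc

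CGCATGCG was in the promoters of 11 of the 77 genes (14.3%), against 3.01% of the 15561 genes on the array with a promoter in the table and 2.07% of all 27025. CCGGAAG was in 21 of the 77 (27.3%), against 13.62% and 9.93%. Of the 11 genes with CGCATGCG, 9 were called lower at day 5 (median change -0.56), and of the 66 without it, 45 were (median -0.34). Of the 21 with CCGGAAG, 20 were called lower (median -0.53), and of the 56 without it, 34 were (median -0.30). The longer motif TCAAGGTCA, an extended site of estrogen-related receptors such as Esrrb, was in 2 of the 77 promoters, those of Atp5g3 and Sdhd, and in 0.35% of promoters of genes on the array. AAGATGGCG, a YY1 motif, went the other way: it was in 7 of the 77 (9.1%), against 2.29% of genes on the array, and 3 of these 7 were called lower (median -0.21), against 51 of the 70 without it (median -0.40). The CGCATGCG and CCGGAAG sets share 5 genes, among them the 3 largest falls at day 5, so they are not separate observations. Calls were not counted for the other genes on the array that hold these motifs. The splits may therefore not be particular to the respiratory chain. These are matches of letters in a fixed window, with no measurement of binding and no test.

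Within complex I, both core and accessory subunits fell. Of the 6 core subunits, 0 were called on day 1, 4 were lower on day 3 and 5 on day 5. Ndufv1, which binds NADH and the flavin, gave 10.90, 10.98 and 10.87 at day 0 and 10.44, 10.36 and 10.04 at day 5, without overlap (change -0.64 ± 0.085 SE, limma adjusted p = 6.39e-07). Ndufs1, an iron-sulfur subunit, changed by -0.01, -0.18 and -0.32 on the 3 days and was called on day 5 alone (adjusted p = 0.00123). Ndufs7, another iron-sulfur subunit, was the core subunit not called on day 5, at 0.18 ± 0.083 (SE), and it rose from day 3 to day 5 by 0.28.

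Of the 28 accessory subunits, which surround the core and stabilise it, 12 were called lower on day 1, 25 on day 3 and 20 on day 5, and 0 were called higher. Ndufa1, a membrane-anchored subunit needed for assembly, gave 10.36, 10.50 and 10.64 at day 0 and 9.30, 9.25 and 9.04 at day 5. Ndufb10, a subunit of the distal membrane arm, gave 9.20, 9.22 and 9.26 at day 0 and 8.09, 7.98 and 7.78 at day 5. Both were lower in every day 5 array than in any day 0 array. Ndufa9 and Ndufa10, larger accessory subunits, changed by -0.11 and -0.12 on day 5 and were not called. The assembly factors were divided: on day 5, Ndufaf2 (-1.13), Ndufaf4 (-0.92) and Ndufaf5 (-0.48) had fallen, Ndufaf7 had risen, and 3 of the 7 were not called.

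Complex II has no mitochondrially encoded part and also works in the citric acid cycle. Its flavoprotein Sdha did not follow its iron-sulfur partner Sdhb. Sdhb gave 10.03, 10.18 and 10.15 at day 0, 9.44, 9.39 and 9.64 at day 3 and 9.60, 9.56 and 9.51 at day 5, all below day 0 (change at day 5 -0.56 ± 0.086 SE, limma adjusted p = 4.41e-06). Sdha gave 11.31, 11.40 and 11.31 at day 0 and 11.42, 11.46 and 11.37 at day 5, so the groups overlapped, and it was not called on any of the 3 days (0.09, 0.08 and 0.07). The membrane anchor Sdhd had fallen on days 3 and 5 (-0.51 and -0.33), and the other anchor Sdhc was not called. Among the 4 Sdhaf factors, 3 were called lower on day 5, Sdhaf1 at -0.44 being the largest change.

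In complex III, 5 of 8 subunits were called lower on day 5, with a median of -0.70. Besides Uqcr11 and Uqcrq these were Uqcrh (-0.89), Uqcr10 (-0.86) and the Rieske iron-sulfur protein Uqcrfs1 (-0.53, limma adjusted p = 6.21e-05). The 2 large core proteins were not called on any of the 3 days: Uqcrc1 changed by 0.02, -0.01 and 0.15, and Uqcrc2 by -0.11, 0.00 and 0.16. In arrays, Uqcrc1 gave 11.60, 11.71 and 11.59 at day 0 and 11.79, 11.83 and 11.73 at day 5, the day 5 arrays being the higher ones by a small margin.

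In complex IV, all 11 genes classed here as widely expressed subunits were called lower on day 5, with a median of -0.52, and 7 of them already on day 1. The class takes in Cox7a2l, and Cox7c is not in it. Cox5a, which contacts the catalytic core from the matrix side, changed most among them on each of the 3 days, by a narrow margin on days 3 and 5. It gave 11.57, 11.62 and 11.72 at day 0, 10.83, 10.94 and 11.03 at day 1, 10.51, 10.58 and 10.75 at day 3 and 10.78, 10.54 and 10.77 at day 5. No withdrawal array reached day 0, and the changes were -0.71, -1.02 and -0.94 (SE 0.085, limma adjusted p = 2.77e-06, 5.58e-10 and 8.03e-10). Cox4i1, which takes part in regulating the enzyme by ATP, changed by -0.35, -0.70 and -0.75, all called.

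The 8 genes of the other class are isoforms of heart and skeletal muscle, lung or testis, and the Ndufa4 paralog Ndufa4l2. On day 5, 2 were called higher (Cox6b2 and Cox7b2) and 1 lower (Ndufa4l2, -0.41), and their median was 0.09. In 4 pairs of isoforms the widely expressed one fell and the other was not called: Cox4i2 changed by 0.07 and Cox4i1 by -0.75, Cox6a2 by -0.21 and Cox6a1 by -0.70, Cox7a1 by 0.19 and Cox7a2 by -0.38, and Cox8b by 0.11 and Cox8a by -0.48. Cox8c, the other partner of Cox8a, changed by -0.33, in the same direction, and was not called (limma adjusted p = 0.105). No test compared both classes, and several of the tissue-restricted genes had mean signals near or below the array medians of 7.33 to 7.46 (Cox8c 7.45, Cox8b 6.90), where a fall is harder to see. Cox6b2 went down before it went up, with 8.97, 8.95 and 8.95 at day 0, 8.66, 8.46 and 8.61 at day 1, 9.08, 9.09 and 9.12 at day 3 and 9.52, 9.37 and 9.13 at day 5. Its day 1 change of -0.38 and its day 5 change of 0.38 were both called (limma adjusted p = 0.0184 and 0.00267).

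In ATP synthase, most genes of the membrane part and peripheral stalk were called lower and most of the F1 head and central stalk were not called. Of the 5 subunits of the F1 head and central stalk, the small epsilon subunit Atp5e was called lower on each of the 3 days (-0.37, -0.79 and -0.80), and the others were not called. The catalytic beta subunit Atp5b gave 13.12, 13.23 and 13.11 at day 0 and 13.19, 13.19 and 13.23 at day 5, and the alpha subunit Atp5a1 gave 12.80, 12.90 and 12.84 and then 12.82, 12.87 and 12.88. Both sets overlapped, with changes of 0.05 ± 0.059 and 0.01 ± 0.059 (SE). Of the 12 subunits of the membrane part and peripheral stalk, 5, 12 and 11 were called lower on the 3 days, the median at day 5 being -0.57. Atp5j2, the f subunit, changed by -1.01, the peripheral stalk subunits Atp5o and Atp5j by -0.58 and -0.56, and Atp5pb by -0.31. No test compared the F1 head with the rest of the enzyme.

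**Figure D3:**
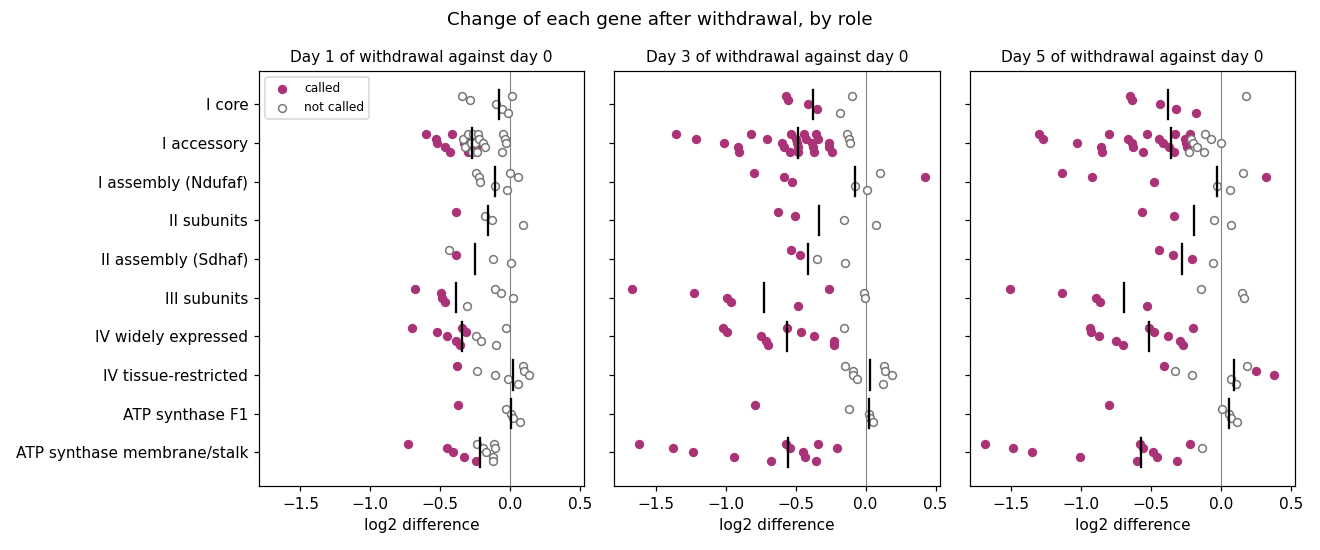
Log2 difference from day 0 of each gene (points) on days 1, 3 and 5 of withdrawal, by role; filled points were called in limma, open ones were not, and the bar is the median of a role. Medians lie near 0 for the F1 head and the tissue-restricted isoforms of complex IV and below -0.5 on day 3 for complex III, the widely expressed subunits of complex IV and the membrane and stalk part of ATP synthase.

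Most of the fall was complete by day 3. From day 1 to day 3, 39 of the 93 genes fell and 3 rose, against 9.77% and 13.2% of all clusters. Uqcr11 (-0.99), Atp5l (-0.92), Atp5k (-0.89) and Ndufb10 (-0.83) fell most, and Cox6b2 (0.52), Ndufaf7 (0.37) and Ndufaf6 (0.32) rose. From day 3 to day 5, 2 fell and 2 rose, against 4.75% and 7.59% of all clusters. They were Ndufaf4 (-0.39), a complex I assembly factor, and Ndufa4l2 (-0.31) on one side, and the complex I subunits Ndufa3 (0.31) and Ndufs7 (0.28) on the other. Without replicate 1 of the day 3 withdrawal the last count was 2 in all.

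Other genes that serve the chain were taken from lists by function, and their counts at day 5 are to be read beside the 18.8% of all clusters called lower and 23.8% called higher. Among 8 carriers and further entry points of electrons, 5 were called lower and 2 higher on day 5, with Dhodh of pyrimidine synthesis (-0.88), the glycerol phosphate dehydrogenase Gpd2 (-0.75) and cytochrome c, Cycs (-0.66), below and Etfdh of fatty acid oxidation (0.60) and the testis cytochrome Cyct (0.43) above. Of 33 other assembly factors, 16 were lower and 6 higher, with Uqcc2 of complex III (-1.08), Ecsit of complex I (-1.08) and the copper chaperone Cox17 (-0.72) changing most. Of 11 genes of coenzyme Q synthesis, 5 were lower and 3 higher, the latter Coq8a (0.64), Coq2 (0.56) and Coq10a (0.49). The inner-membrane ADP/ATP carrier Slc25a5 fell by 1.12, and Pdk4, a kinase that shuts pyruvate dehydrogenase, rose by 1.21. Mitochondrial DNA was covered by 2 subunits: ND3 fell by 0.32 (limma adjusted p = 0.000226), and COX2 changed by -0.07, not called.

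Among 22 regulators of mitochondrial gene expression, 12 were called lower and 3 higher on day 5. Esrrb, a nuclear receptor that is also among the stem cell markers above, fell by 1.29, Slirp, which stabilises mitochondrial mRNA, by 1.26, and Tfam, which packages mitochondrial DNA, by 0.65. Gabpa (by 0.53) and Nrf1 (by 0.23) were also among those that fell, and a link to the promoter motifs above was not tested. The mitochondrial DNA polymerase Polg rose by 0.93 and the GABP partner Gabpb1 by 0.86. The 18 genes of pyruvate entry and the citric acid cycle had 4 called lower, 4 higher and 10 not called on day 5, shares near those of all clusters, with a median of 0.05. Pdhx of the pyruvate dehydrogenase complex (-0.70) fell most and Idh2 (0.90) rose most.

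Lower signal at day 5 was not particular to the respiratory chain. Of 77 mitochondrial ribosomal proteins, 10, 63 and 61 were called lower on days 1, 3 and 5, with medians of -0.15, -0.43 and -0.47, and Mrpl20 (-1.56) and Mrpl13 (-1.38) fell most. Of 59 cytosolic ribosomal proteins, 31 were lower and 1 higher on day 5, with a smaller median of -0.14. A further set of 37 genes for small proteins outside the chain, chosen after their values were seen (the Lsm, Snrp, Timm8 to Timm13, Psmb and small Polr2 families), had 31 lower and 1 higher on day 5 and a median of -0.56. The part in these results of what such genes share, such as short transcripts, was not tested, and transcript lengths were not used here. Across the 93 genes, the change at day 5 was nearly unrelated to the day 0 signal (Spearman's rho -0.09, across genes, which are not independent replicates), as it was across all clusters (-0.08).

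**Figure D4:**
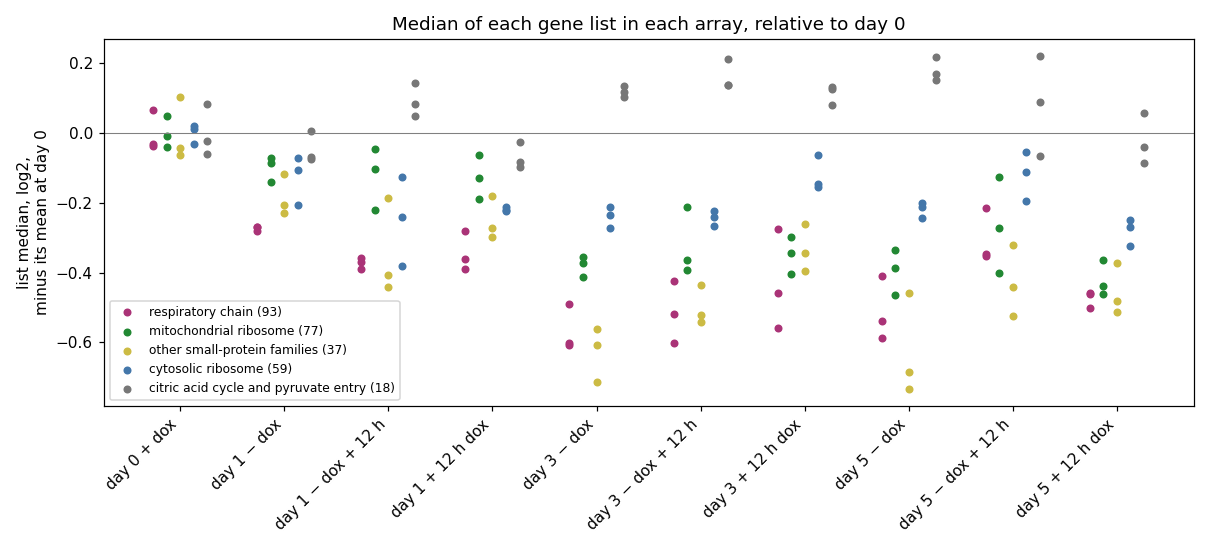
Median log2 signal of 5 gene lists in each array (points), minus the mean of that median over the 3 day 0 arrays, in the 10 groups. The respiratory chain, the mitochondrial ribosome and the other small-protein families lie below -0.3 in all arrays of days 3 and 5 without further hours, while the citric acid cycle list lies above 0 there.

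The pulse of doxycycline asks whether renewed Nanog changes these genes within 12 h. Each pulse group was set against arrays kept without doxycycline for the same hours, so these comparisons share no arrays with the withdrawal comparisons. On day 1, 0 of the 93 genes were called in limma, against 0.547% of all clusters called higher and 3.2% called lower, and 12 genes had an unadjusted p under 0.05. On day 3, 0 were called, against 0.00428% and 0.0342% of all clusters, with 17 genes at an unadjusted p under 0.05 and a median of 0.10. On day 5, 12 were called lower and 0 higher, against 7.1% and 5.13% of all clusters, with a median of -0.13. With array weights in limma, 23, 17 and 41 genes were called on the 3 days. The shares of all clusters above are those of the fit without weights, and no shares were counted with them.

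The pulse differences leaned upward on day 3 and downward on day 5 over the respiratory chain genes as a whole, with 20 of the 93 below 0 on day 3 and 79 of 93 on day 5. Genes that had fallen in withdrawal went with the rest, and no test set them apart. Of the 65 genes called lower on day 3 of withdrawal, 58 had a day 3 pulse difference above 0 (median 0.12), and 0 of these were called. Of the 62 called lower on day 5, 58 had a day 5 pulse difference below 0 and 4 above 0 (median -0.15), and 6 were called lower. Of the 32 called lower on day 1, 15 were above 0 in the day 1 pulse. Uqcr11, for example, gave 8.52, 8.89 and 8.65 in the day 3 control and 8.77, 8.89 and 9.29 in the day 3 pulse. On day 5 it gave 9.17, 9.05 and 9.55 in the control and 8.96, 8.64 and 8.87 in the pulse. The day 3 arrays overlapped, and the day 5 arrays did not (change -0.43 ± 0.14 SE, limma adjusted p = 0.0476).

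The largest called fall in the day 5 pulse was of Ndufa6, a complex I subunit that contacts the acyl carrier protein. It gave 9.71, 9.80 and 9.89 in the control and 9.46, 9.25 and 9.23 in the pulse, without overlap (change -0.49 ± 0.077 SE, limma adjusted p = 0.000481). Cox6b2 (-0.48) and Ndufaf6 (-0.43) followed, the latter with overlapping arrays. The day 5 count was not steady: it was 27 without replicate 1, 4 without replicate 2 and 2 without replicate 3 of the control, and 22, 2 and 2 without replicates 1, 2 and 3 of the pulse. It was 0 with only the groups compared in the fit. Of the 4 arrays of widest spread, 2 are day 5 controls. Without the 4 only replicate 1 of the day 5 control was left, and the median of the 93 genes was -0.08 in place of -0.13.

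Averaged over the 3 days, the pulse was called lower for 6 genes and higher for 2, against 14% and 6.8% of all clusters. Ndufaf6 (-0.26 ± 0.062 SE), Cox6b2 (-0.22), Ndufa6 (-0.19) and Atp5d (-0.16), the delta subunit of the ATP synthase stalk, were lowest. Cox8c (0.27), a testis isoform, and Atp5g3 (0.15) were the 2 higher ones. Under quantile normalization 2 were lower and 3 higher, and with the interquartile range as a covariate 1 was called. The difference between the day 5 and the day 1 pulse was called for 0 genes, against 0.0599% of all clusters higher and 0.0513% lower, with 17 genes at an unadjusted p under 0.05. With array weights 34 were called, and the share of all clusters was not counted in that fit. Single arrays mattered for the average too: it was 3 to 5 genes without replicate 1 or 2 of the day 1 pulse, replicate 2 of the day 3 control or pulse, replicate 2 or 3 of the day 5 control, or replicate 2 or 3 of the day 5 pulse.

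The controls of the pulse, set against the arrays of the same day, show what 12 further hours without doxycycline brought. These comparisons share arrays with both the withdrawals and the pulses. From day 1, 5 genes fell and 1 rose, against 1.23% and 5.02% of all clusters. The 5 were Ndufb10 (-0.60), Ndufs6 (-0.51), a zinc-binding complex I subunit, Atp5l (-0.49), Ndufa2 (-0.42) and Ndufv1 (-0.30), and Ndufaf6 rose by 0.39. From day 3, 0 fell and 1 rose, against 0.402% and 1.29% of all clusters: Ndufa4l2 was higher in every later array than in any earlier one, with means of 7.55 ± 0.045 and 8.18 ± 0.21 (SD, n = 3; difference 0.63 ± 0.10 SE; limma adjusted p = 0.000845). From day 5, 0 fell and 18 rose, against 0.984% and 2.32% of all clusters.

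All 18 that rose after day 5 had been called lower at day 5 against day 0, as 62 of the 93 had; both comparisons use the same day 5 arrays with opposite sign, so this overlap is no result. Atp5k gave 9.44, 9.09 and 8.83 at day 5 and 9.81, 9.68 and 10.16 after the further 12 h, without overlap, a change of 0.76 ± 0.17 (SE, limma adjusted p = 0.0113). Uqcr11 (0.65), Ndufa4l2 (0.52) and Cox6b1 (0.52), a subunit on the outer face of complex IV, came next. In the same hours the per-array mean of the trophectoderm markers went from 9.03 to 9.15 up to 9.43 to 9.57, and that of the fibroblast markers from 7.97 to 8.08 down to 7.80 to 7.92, and their part was not tested. The stem cell markers went from 10.59 to 10.70 up to 10.69 to 10.90, with 2 of 10 called higher and a median of 0.16, beside 0.16 for the respiratory chain genes. In the further hours of days 1 and 3, 4 of 12 trophectoderm markers were called higher each time. The 2 arrays of widest spread are in this control group. Without the 4 arrays of widest spread only its replicate 1 was left, and the median of the respiratory chain genes was 0.11 in place of 0.16. Without replicate 3 of the control 2 genes were called. The count was 4 and 5 without replicate 2 or 3 of the day 5 withdrawal, and 0 with only both groups in the fit. On day 1 the count was 14 without replicate 3 and 2 without replicate 2 of the control, and 3 without replicate 2 or 3 of the withdrawal.

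**Figure D5:**
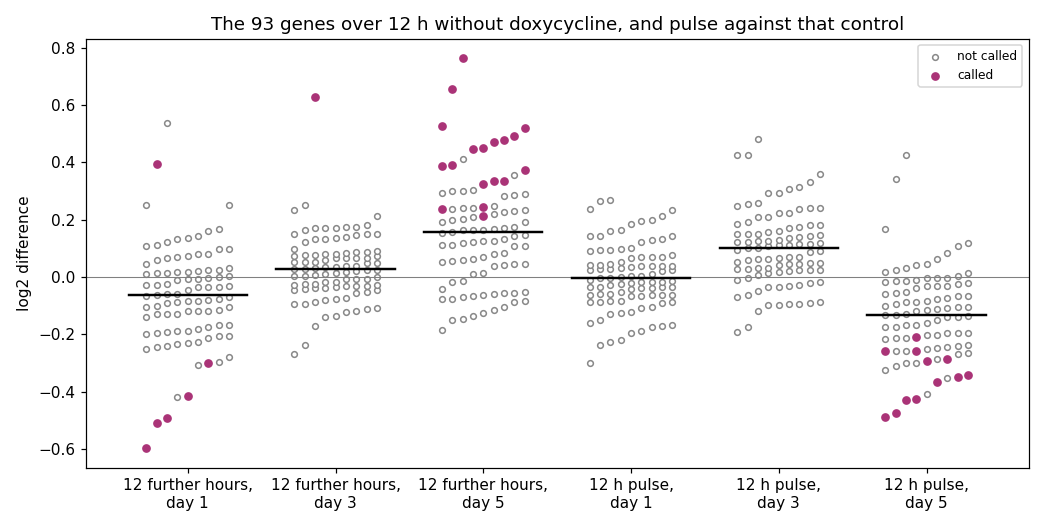
Log2 difference of each of the 93 genes (points; filled where called in limma) over 12 further hours without doxycycline on days 1, 3 and 5 (left) and of the pulse against those same control arrays (right), with the median as a bar. The medians run from -0.06 through 0.03 to 0.16 on the left and from 0.00 through 0.10 to -0.13 on the right; each day's 2 columns share the control arrays.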

How the data were processed

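Total RNA of 30 samples was measured, 1 array each. Deposited are log2 signals that the authors made with Expression Console (Affymetrix) by RMA, as the submitters' processing notes name them; versions and annotation build are not given in the sources used here. RMA equalizes the distributions of arrays, which can narrow or shift real differences. Of 28815 clusters, the platform table gave 1 symbol to 21780, several to 1605 and none to 5430, and the 23385 with a symbol were tested. 1 limma model (limma 3.58.1, R 4.3.3) took in all 30 arrays, with 10 group means and no covariate, and p-values were adjusted by Benjamini-Hochberg within a contrast. The 93 genes came from 119 rows, the row of highest mean standing for a gene. At day 5, 25 of the 26 other rows had the same call. The exception was a row of Ndufab1, called at -0.28 where the row given was not called (-0.23). The 6 rows with several symbols (of Cox7c, Ndufb4 and Ndufs5) were left out, and all 6 were called lower at day 5. Rows of 1 gene may share probes with near-identical copies, so their values are uncertain.

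The genes, lists and tests were chosen with earlier results of these data known. Genes named are the called ones of largest change (10 a direction at day 5, 4 otherwise), a core pair per complex, the isoforms of complex IV, and the 3 largest changes of each other list, with some further members chosen after their values were seen. No contrast had replicate numbers that correlated above 0.1 in all 3 pairs, so the numbers were not taken as pairs. The script was tested on simulated data.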

Additional observations from a re-analysis of the deposited data

Results flagged for a closer look

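Whether an effect differed between days was tested in limma as a difference of contrasts, chosen after seeing the data. The 12 further hours without doxycycline differed between day 5 and day 1 for 26 of the 93 genes, 25 of them toward a rise on day 5, against 5.79% of all clusters. The differences (log2, day 5 minus day 1) were 1.18 for Atp5k, 1.01 for Ndufb10, 0.98 for Atp5l, 0.96 for Uqcr11, 0.87 for Ndufa2, 0.84 for Ndufs6 and 0.71 for Ndufa4l2, and -0.58 for Ndufaf6. Without the 4 arrays of widest spread only replicate 1 of the day 5 control was left. The differences were then 1.30, 1.14, 1.10, 1.03, 0.96, 0.84, 0.69 and -0.74 in the same order.

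Between day 3 and day 1 the further hours differed for 5 genes, all toward day 3, against 2.87% of all clusters (671 of 23385). Without the 4 arrays 5 were called, Ndufs6 not among them, while the clusters called rose to 952 of 23385. The day 5 control takes no part in this comparison. With all arrays, the differences were 0.81 for Ndufb10, 0.81 for Ndufa4l2, 0.66 for Atp5l and 0.48 for Ndufs6, and the other gene was Atp5g1 (0.48). The pulse differed between day 5 and day 3 for 2 genes, against 0.936% of all clusters: Ndufa6 (-0.58) and Cox7a1 (-0.66). Without the 4 arrays, which leaves only replicate 1 of the day 5 control, the differences were about as large, at -0.55 and -0.70.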

How the results depend on the processing

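The counts of genes called after withdrawal stayed within 1.5 times the values given (32, 66 and 65 on days 1, 3 and 5, and 42 from day 1 to day 3) under every alternative except on leaving out single arrays, where they ran from 12 to 27, 62 to 66, 57 to 66 and 33 to 42. The counts over 12 h and from day 3 to day 5 moved with most settings, in the order day 3 to day 5 (4 as given), pulse on days 1, 3 and 5 (0, 0, 12), their average (8), the day 5 against the day 1 pulse (0), and 12 further hours on days 1, 3 and 5 (6, 1, 18). Shares of all clusters were not counted in the alternative fits of these contrasts, in this section or above. A count that moved may therefore not be particular to these genes. Array weights gave 18, 23, 17, 41, 26, 34, 29, 4 and 37. Trend and robust variances gave 7 for day 3 to day 5, 1 and 20 for the pulse on days 3 and 5, and 10 for the hours on day 1. Leaving out the lowest 40 percent of mean signal gave 7, 1, 19 and 11 for the same. Quantile normalization gave 7 for day 3 to day 5, 1 and 3 for the pulse on days 1 and 5, and 5 for the average. After withdrawal it called 3 genes higher on day 3 and 9 on day 5, against 1 and 3 as given. Median centring gave 2 for day 3 to day 5 and 3 for the hours on day 1. The interquartile range as a covariate gave 2, 1 and 1 for the 3 pulses, 1 for the average and 10 for the hours on day 1. With only the groups compared in the fit, which has fewer samples, 0 were called in the day 5 pulse, 3 in the average and 0, 0 and 0 in the hours. Without the 4 arrays of widest spread, chosen after seeing the data, 6 were called in the pulse and 16 in the hours on day 1. Only replicate 1 of the day 5 control was left, so counts that use it are not given. The medians there were -0.08 for the day 5 pulse, 0.02 for the average and 0.11 for the day 5 hours, against -0.13, -0.02 and 0.16 with all arrays. Other causes were not tested. Single arrays left out gave 2 to 6, 0 to 2, 0 to 0, 2 to 27, 3 to 10, 0 to 4, 2 to 14, 1 to 1 and 2 to 22.

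The replicate number as a block gave 32, 65 and 65 after withdrawal, 43 from day 1 to day 3, 4 from day 3 to day 5, 0, 0 and 13 for the pulses, 7 for their average, 0 for their difference and 6, 1 and 17 for the hours. Pairs of the same number correlated at -0.72 to 0.40, and the labels do not say whether such arrays share more than the number. Of 82 named changes, no called gene reversed. Over 1465 alternative values, 1313 kept side and direction, 118 were no longer called (64 on leaving out an array), 15 became called and 19 near 0 changed sign without a call. The last were, under median centring, Uqcrc1 and Atp5a1 on day 1 (-0.0067 and -0.0036), Atp5a1 and Atp5b on day 3 (-0.0221 and -8e-04) and Atp5a1 on day 5 (-0.0352), under quantile normalization Ndufs1 on day 1 (0.0094) and Uqcrc1 on day 3 (0.12), and under array weights Uqcrc1 on day 3 (0.0161). On leaving out single arrays, Ndufs1 ran from -0.0384 to 0.0226 on day 1, Uqcrc1 from -0.0033 to 0.057 on day 1 and from -0.038 to 0.0252 on day 3, and Atp5a1 from -0.0113 to 0.051, -0.0098 to 0.0603 and -0.0135 to 0.0375 on the 3 days. Precision is limited by 3 arrays a group, and no scaling moved the median of all clusters by over 0.1.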
